A study of Arabidopsis thaliana with 30 samples.

Results

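Of the 22746 probe sets of the array that are not controls, 122 stood at least 8-fold higher in high light than in untreated leaves in each of 5 Arabidopsis genotypes. A probe set is a group of short probes that together report 1 transcript, or a few transcripts too alike to be told apart. The members were chosen from the measured signals: the high light mean of log2(signal + 1) had to lie 3 or more above the untreated mean in every genotype, and had to be 8 or more, a signal of 255, in every genotype. These thresholds were met by 129 probe sets, of which 7 were left out by name: AT2G29500, AT1G53540, ATHSP22.0, AT5G51440, AT1G52560, Hop3 and AT2G21640. The platform annotation named 1 gene for 46 of the 122 members, several genes for 2, and none for 74, which are given here by probe set. For the members, the rise in high light and the high light level are therefore described without a test, and only differences between genotypes were tested. For other genes on the gene lists, limma's calls on the change in high light are also given.

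Leaves exposed to a sudden excess of light absorb more energy than photosynthesis can use, which produces reactive oxygen species and warms the tissue. Heat shock factors then switch on genes for chaperones, proteins that hold or refold damaged proteins, and light receptors switch on genes for flavonoids and other phenylpropanoids that act as sunscreens. Small heat shock proteins bind unfolding proteins, HSP70 and HSP90 refold or mature them with ATP, and co-chaperones deliver clients to HSP70 and HSP90 or set the pace of their cycle. WRKY40 and WRKY63 belong to a plant-specific family of transcription factors, and WRKY40 is known mainly as a repressor in stress and hormone responses.

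Transcripts were measured on 30 arrays in 10 groups of 3, from leaves of plants 21 days old grown on soil. The genotypes were Atwrky40 KO and Atwrky63 KO, which are knockouts, Atwrky40.4 OE and Atwrky63.3 OE, which are overexpressors, and the wild type Col0. Each genotype was sampled after high light, given for 1 h at an intensity of 1000 µE m-2 s-1, and without treatment. The sources used here do not give the knockout alleles or the promoters that drive the overexpressed genes, and each overexpressor appears under 1 line name. The labels do not say whether the 3 replicates were separate plants, so the tests measure the spread between samples that could be technical repeats. WRKY40 and WRKY63 have no probe set named by the annotation, so the lines were not checked on their own transcripts.

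The deposited signals share 1 scaling, with a trimmed mean of 499.8 on each array. The median signal was 148.2 to 164.8 on the high light arrays and 168.9 to 187.2 on the untreated arrays, and within a group the arrays correlated at 0.922 to 0.966 over all probe sets on the log2 scale. The leaf markers RCA, the activase of Rubisco, and LHCB4.2, a light-harvesting protein, had Col0 signals of 33500 and 16300 in high light and 29200 and 23200 without treatment. The only root marker named, PYK10, had Col0 signals of 153 in high light and 511 without treatment. As a measure of RNA integrity, the signal of the 3' actin probe set exceeded that of the 5' one by a median of 1.65 on the log2 scale, with 2.35 in Col0 untreated replicate 2 and 2.32 in Atwrky63.3 OE high light replicate 3.

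The 122 members together held 4.5 to 6.14% of an array's summed signal in high light and 0.154 to 0.209% without treatment. All 122 passed the filter on dim probe sets, a mean signal of 46.7 or more, which left 15922 probe sets for testing. That mean runs over all 30 arrays, and 21 of the members averaged under 46.7 in untreated Col0, so they passed through their high light arrays and their untreated level has no firm value. In the untreated lines the count was 27 in Atwrky40 KO, 23 in Atwrky40.4 OE, 26 in Atwrky63 KO and 22 in Atwrky63.3 OE. The high light replicates held 5.97, 5.97 and 5.62% in Atwrky40 KO, 4.79, 4.5 and 4.95% in Atwrky40.4 OE, 5.83, 5.64 and 4.61% in Atwrky63 KO, 6.09, 6.14 and 5.47% in Atwrky63.3 OE, and 5.55, 6.07 and 5.64% in Col0. All 3 Atwrky40.4 OE arrays lay below the 3 Col0 arrays. In bulk leaf RNA, a response in fewer cells and a smaller response per cell cannot be told apart.

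**Figure D1:**
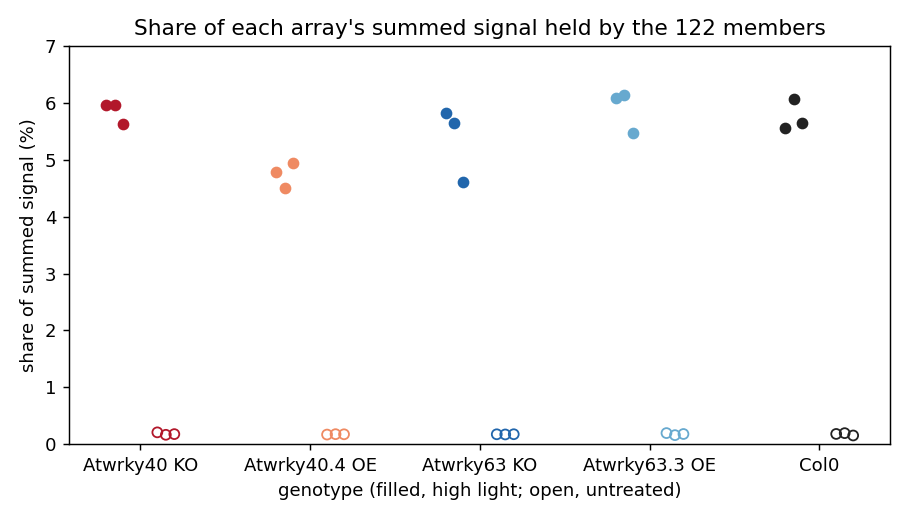
Share of each array's summed signal (%, vertical axis) held by the 122 members, by genotype. Each point is 1 array, filled for high light and open for untreated. The high light arrays lie between 4.5 and 6.14%, with the 3 Atwrky40.4 OE arrays below the 3 Col0 arrays, and the untreated arrays between 0.154 and 0.209%.

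The median member rose by 4.63 on the log2 scale in Atwrky40 KO, 4.26 in Atwrky40.4 OE, 4.69 in Atwrky63 KO, 4.60 in Atwrky63.3 OE and 4.37 in Col0. Over all 15922 probe sets the median change was -0.20 in Atwrky40 KO, -0.17 in Atwrky40.4 OE, -0.22 in Atwrky63 KO, -0.25 in Atwrky63.3 OE and -0.18 in Col0. Since the rule used these changes, limma called all 122 members higher in every genotype, beside 14.3% of all probe sets in Atwrky40 KO, 14.2% in Atwrky40.4 OE, 14.2% in Atwrky63 KO, 15.9% in Atwrky63.3 OE and 14.9% in Col0, and nothing is read from that. The high light and untreated arrays did not overlap for all 122 members in Atwrky40 KO, Atwrky63 KO and Atwrky63.3 OE, beside 17.6%, 18.4% and 17.2% of all probe sets higher without overlap, and for 121 in Atwrky40.4 OE and Col0, beside 16.6% and 17.3%. The exception in both Atwrky40.4 OE and Col0 was 245757_at, which had 77.8, 2990 and 1200 in high light and 80, 47 and 22.2 without treatment in Atwrky40.4 OE. In Col0 it had 73, 1640 and 1840 in high light and 3.9, 52.1 and 151 without treatment.

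The rise was 5 or more in all 5 genotypes for 34 members and 10 or more in all 5 for 2. Those were 250351_at, which is not named here and had 34400, 32700 and 30100 in Col0 high light and 30.4, 26.2 and 21.5 in untreated Col0, and 253884_at, with 14500, 20600 and 20200 in Col0 high light and 1.88, 8.79 and 5.19 in untreated Col0. Both were dim before treatment and bright after 1 h. A low starting signal and a large rise went together over the members (Pearson r = -0.59 between untreated level and mean rise, n = 122), and these axes share the untreated arrays. The high light level correlated with the mean rise at 0.50 and with the untreated level at 0.40. At the dim end a log2 change depends on the pseudocount of 1.

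**Figure D2:**
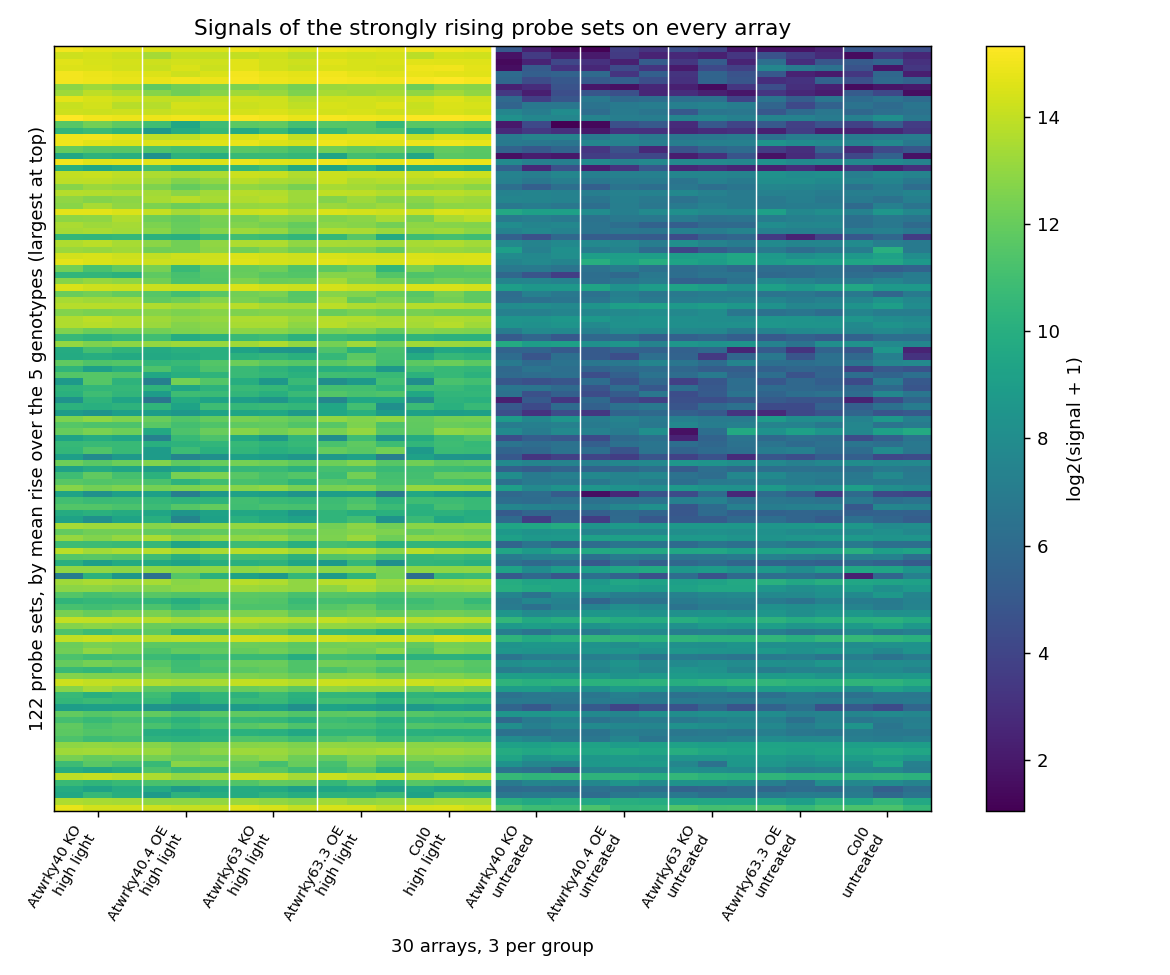
Signal of each of the 122 members (rows, ordered by mean rise) on each of the 30 arrays (columns, 3 per group, high light left and untreated right of the thick line), coloured by log2(signal + 1). The rows at the top, with mean rises up to 11.62, are darkest without treatment, and replicates within a group look alike.

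Over the 122 members the rises of any pair of genotypes, which share no arrays, correlated at 0.89 to 0.96 (Pearson) and 0.76 to 0.89 (Spearman). These are the values the rule used, and the correlations are a description across probe sets. The rises of a member in the 5 genotypes spanned between 0.29, for AT3G17800, and 4.07, for 254059_at. Atwrky40.4 OE had the smallest of the 5 rises for 52 members and the largest for 3. Col0 had the smallest for 13 and the largest for 28. At the threshold, AT4G27654 lay just inside with 3.04 in Atwrky63.3 OE, AT3G12050 with 3.08 and the cytochrome c gene CYTC-2 with 3.09, both in Atwrky40.4 OE. Just outside lay AT2G41160 (2.96, Atwrky40.4 OE), AT1G64500 (2.96, Atwrky40 KO) and AT3G07090 (2.93, Atwrky40.4 OE).

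Chaperones and co-chaperones made up 13 of the 46 named members, grouped by role after their values had been seen. Their median rise was 5.31 in Atwrky40 KO, 4.69 in Atwrky40.4 OE, 5.19 in Atwrky63 KO, 5.21 in Atwrky63.3 OE and 5.36 in Col0. AT5G48570 (ROF2), a prolyl isomerase that binds HSP90, had 31500, 30200 and 30000 in Col0 high light and 205, 229 and 172 in untreated Col0, a 151-fold ratio of mean signals. Its rise was 7.33 ± 0.15 (SE) in Atwrky40 KO, 6.95 ± 0.15 in Atwrky40.4 OE, 6.98 ± 0.15 in Atwrky63 KO, 6.85 ± 0.15 in Atwrky63.3 OE and 7.24 ± 0.15 in Col0. The genotypes thus stayed within 0.48 of each other for this gene.

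The DnaJ protein AT1G71000, of the family that feeds clients to HSP70, had a mean rise of 7.61, which ranks 1 among the members that name 1 gene. With a pseudocount of 16 it was 6.39 and ranked 2, behind AT5G48570 with 6.97. Its signals in Atwrky40 KO were 3180, 5000 and 3570 in high light and 3.03, 17.4 and 1.08 without treatment. In Col0 they were 3080, 3230 and 2880 in high light and 13.2, 35.1 and 11 without treatment. The spread of its rise over genotypes, 6.72 to 9.49, came with an SE of 0.74, and no difference of a line from Col0 was called. A second DnaJ protein, AT2G20560, averaged 8030 ± 982 in Col0 high light and 96.5 ± 32.8 in untreated Col0 (SD, n = 3). Fes1A, a nucleotide exchange factor that lets HSP70 release its client, averaged 11400 ± 2100 in Col0 high light and 277 ± 51.3 in untreated Col0. HSA32, which is needed to keep acquired heat tolerance over days, averaged 10500 ± 4690 in Col0 high light and 95.4 ± 15.6 in untreated Col0.

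The set held 3 small heat shock proteins. AT5G37670, a peroxisomal form, had 14000, 12700 and 12500 in Col0 high light and 169, 182 and 108 in untreated Col0. AT1G54050 had 25200, 24600 and 24600 in Col0 high light and 705, 768 and 435 in untreated Col0. AT2G19310 had 18200, 16700 and 17500 in Col0 high light and 1330, 1280 and 965 in untreated Col0. Their rises in Col0 were 6.44 ± 0.20 for AT5G37670, 5.33 ± 0.19 for AT1G54050 and 3.89 ± 0.12 for AT2G19310 (SE). The remaining 5 chaperone members were AT3G12050, an HSP90 activator of the Aha1 type, the NudC domain protein BOB1, the cyclophilin AT1G01940, AT1G66080, related to the HSP70 importer Hikeshi, and the SGS domain protein AT1G30070. Their rises in Col0 ran from 3.66 for AT3G12050 to 5.43 for AT1G30070.

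Other chaperone genes on the same lists that did not meet the thresholds rose by less than 3 in Col0 or fell there. Of the HSP70 list, 2 of 14 genes had a named probe set and neither was a member, with rises in Col0 of 2.61 ± 0.21 (Hsp70-2) and 2.90 ± 0.14 (AT3G09440), and limma called both higher in all 5 genotypes. Of the 9 named small heat shock proteins, 3 were members and 5 were left out by name, with rises of 8.30 to 11.87 in Col0. The last, AT4G21870, had 0.38 ± 0.43 in Col0 and was not called in any genotype. Of the 11 named co-chaperones, 4 were members and Hop3, with 8.82 ± 0.46 in Col0, was left out by name. Among the other 6, SGT1A (2.80 ± 0.19 in Col0) and Hop2 (2.06 ± 0.20) rose in all 5 genotypes while Fes1B (-2.25 ± 0.18) and Fes1C (-1.13 ± 0.13), relatives of Fes1A, fell in all 5. Hop1 fell in Atwrky40 KO (-0.39 ± 0.13) and Atwrky40.4 OE (-0.39 ± 0.13) and was not called in Col0 (-0.16 ± 0.13). AT4G02450 rose in Atwrky40 KO (0.47 ± 0.12) and was not called in Col0 (-0.07 ± 0.12). Its mean signals in Atwrky40 KO were 435 in high light and 313 without treatment, against 1480 and 1550 in Col0. No difference in response between a line and Col0 was called for Hop1 or AT4G02450 (lowest limma adjusted p = 0.136). All 3 named genes of the unfolded protein response of the endoplasmic reticulum, BZIP60 (2.57 ± 0.18), ATERDJ3B (2.20 ± 0.11) and CRT1b (1.47 ± 0.14), rose in all 5 genotypes and stayed under the threshold of 3 in Col0. No heat shock factor, HSP90, HSP100 or chaperonin gene was named by the annotation, so these groups were not analysed here.

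Members outside the chaperones included parts of the respiratory chain. AT5G25450, a subunit of mitochondrial complex III, had 17100, 20600 and 18400 in Col0 high light and 143, 229 and 175 in untreated Col0, a 103-fold ratio of means. CYTC-2, the mobile electron carrier between complexes III and IV, averaged 10400 ± 686 in Col0 high light and 990 ± 332 in untreated Col0. AT5G12110, a beta subunit of elongation factor 1, which recharges the translation elongation factor, rose evenly, by 5.22 to 5.54. AT1G72660, a GTP-binding protein, rose by 5.94 to 8.03. AT5G07330, whose function is not given here, had 1070, 2040 and 1560 in Col0 high light and 4.39, 5.08 and 9.06 in untreated Col0.

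Genes of light signalling and phenylpropanoid synthesis formed a further 5 members. HYH, a bZIP factor and partner of the light regulator HY5, had 1320, 1190 and 1160 in Col0 high light and 45.9, 74.2 and 72.7 in untreated Col0. UGT84A1, which attaches glucose to hydroxycinnamic acids, had 926, 922 and 707 in Col0 high light and 8.27, 3.94 and 6.88 in untreated Col0. UGT78D2, a flavonoid glucosyltransferase, averaged 5520 ± 379 in Col0 high light and 462 ± 83.9 in untreated Col0, and CHIL, a chalcone isomerase-like protein that helps flavonoid synthesis, averaged 3040 ± 282 in Col0 high light and 214 ± 38.4 in untreated Col0. AFR, an F-box protein of phytochrome A signalling, rose by 3.41 to 4.10. DFR, the anthocyanin enzyme dihydroflavonol reductase and the only named gene of the flavonoid list, was not a member. Limma called it higher in Atwrky40.4 OE (1.59 ± 0.50, SE, adjusted p = 0.0133) and in no other genotype, with 0.44 ± 0.50 in Col0. The response of Atwrky40.4 OE minus that of Col0 was 1.15 ± 0.71 for DFR and was not called (limma adjusted p = 0.78).

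The rises of the 6 regulators and calcium sensors had an SE of 1.04 for STZ, 0.57 for CML38 and 0.24 to 0.27 for the other 4. STZ, a zinc finger repressor of stress responses and the member from the high light list, had 6740, 4920 and 6620 in high light and 2.2, 71.7 and 829 without treatment in Atwrky63 KO. In Col0 it had 3490, 7580 and 6690 in high light and 205, 572 and 865 without treatment. Its rise of 6.71 ± 1.04 (SE) in Atwrky63 KO stood against 3.59 ± 1.04 in Col0, with the untreated Atwrky63 KO arrays spread from 2.2 to 829, and the difference was not called (3.12 ± 1.47, limma adjusted p = 0.49). CML38, a calmodulin-like protein, rose by 3.36 ± 0.57 in Col0 and by 4.79 to 5.27 in the lines. Its untreated Col0 signals were 67.1, 201 and 100, and no difference in its response was called (F test, limma adjusted p = 0.457). The EF-hand protein AT1G21550, the ERF factor AT4G28140, the protein phosphatase AT3G62260 and the RING finger protein AT5G47610 rose by 4.85, 4.11, 3.62 and 3.82 in Col0.

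**Figure D3:**
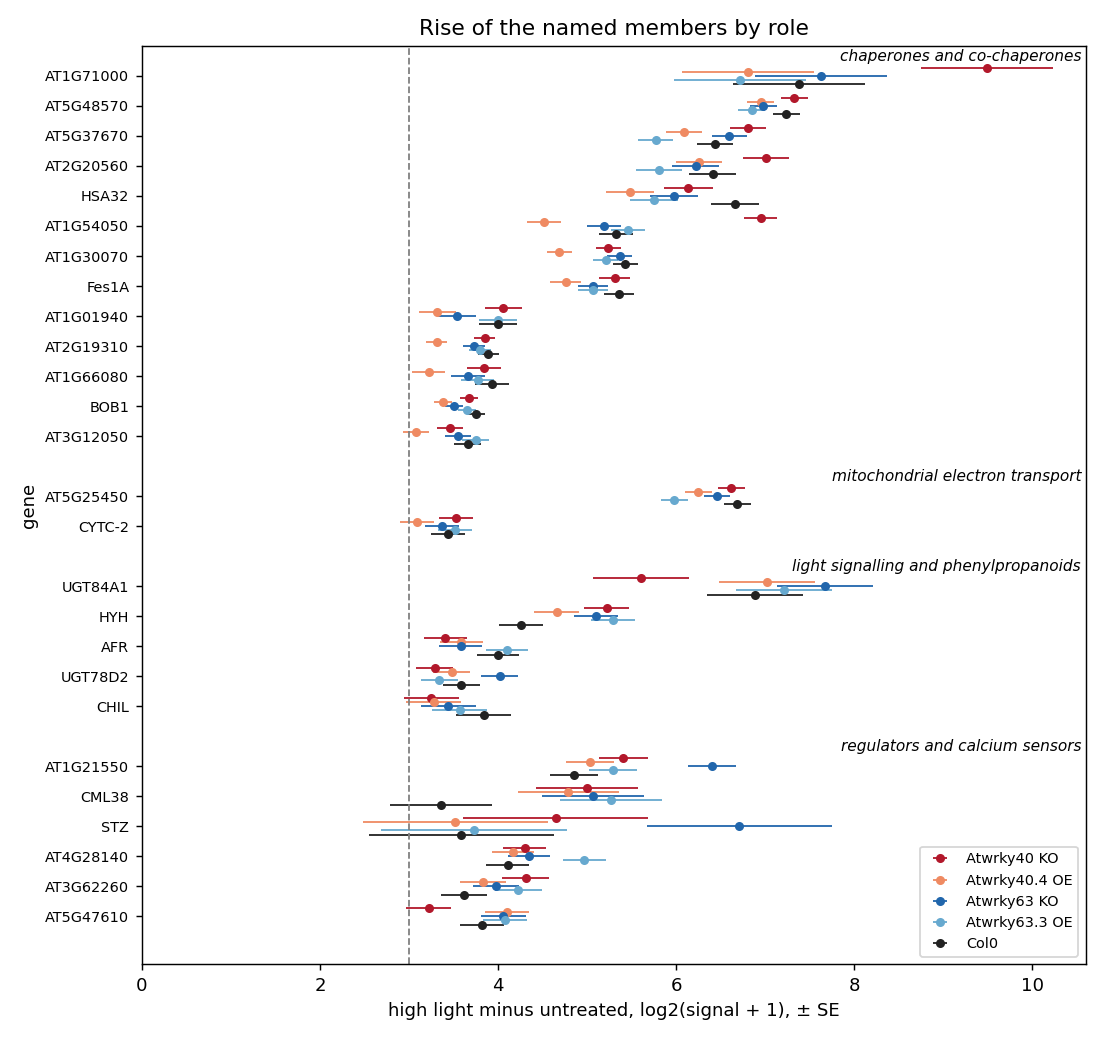
Rise in high light of the 26 named members with a role given (rows, by role), as high light minus untreated on the log2(signal + 1) scale (horizontal axis), with the SE of the fit over all 30 arrays. Colours mark the genotypes and the dashed line the threshold of 3. AT1G71000 in Atwrky40 KO stands furthest right at 9.49, STZ has the widest error at 1.04, and the 5 genotypes mostly lie close together.

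Length, position and type of gene were looked at for the 46 members that name 1 gene. Their genes were shorter, with a median length of 1408 bases against 2117 for all 13436 named probe sets with a length, and 54.3% against 28% were under 1500 bases. They lay on all 5 nuclear chromosomes, with 23.9% on chromosome 1, 10.9% on chromosome 2, 17.4% on chromosome 3, 15.2% on chromosome 4 and 32.6% on chromosome 5. Over all named probe sets the shares were 25.7%, 16.4%, 20.4%, 14.6% and 22.4%. Of the 46, 45 code for protein (97.8%), against 92.6% of all named probe sets. AT4G27654 and AT4G27657 are next to each other on chromosome 4. AT4G27654 had 909, 1770 and 2600 in Col0 high light and 19.4, 40.2 and 88.7 in untreated Col0, and AT4G27657 had 1740, 1110 and 1610 in Col0 high light and 41, 79 and 129 in untreated Col0.

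Whether the lines differed from Col0 in these genes was tested in each light, against the same Col0 arrays for all 4 lines. In high light, limma called a genotype effect (F test over the 4 lines) for 42 of 122 members (34.4%), beside 33.7% of all probe sets. Without treatment it called 38 (31.1%), beside 27.1% of all. The test on the response itself, which asks whether the rise differed in size, called 14 (11.5%), beside 3.28% of all. The 38 and the 14 include members that were dim in untreated Col0, such as 254059_at with a mean of 12.3. With a pseudocount of 16 the counts were 35 and 15, beside 27.7% and 3.67% of all probe sets. The call for AT5G10695, whose function is not given here, had the smallest p in high light among members that name 1 gene (F test, limma adjusted p = 0.000265). It had 6900, 10800 and 7700 in Atwrky40 KO, 3290, 3210 and 3720 in Atwrky40.4 OE, 4040, 4590 and 3290 in Atwrky63 KO, 8200, 7230 and 7250 in Atwrky63.3 OE, and 4750, 7020 and 5420 in Col0. None of its 4 differences from Col0 was called on its own, the lowest being -0.73 ± 0.24 (SE) in Atwrky40.4 OE (limma adjusted p = 0.0976).

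In Atwrky40.4 OE the members stood lower than in Col0 after high light. Their median difference was -0.37 on the log2 scale, against 0.03 over all probe sets, and 98 of 122 lay below 0, beside 7103 of 15922 probe sets. The 13 chaperones and co-chaperones among the members, grouped after their values were seen, all lay below 0, with a median of -0.59. Other listed chaperones went both ways in mean signal. Hsp70-2 (3380 against 2420 in Col0), AT4G21870 (1060 against 542), Fes1C (228 against 199) and Hop2 (4090 against 4070) were higher. AT3G09440 (14400 against 19100), SGT1A (3900 against 4550), Hop1, Fes1B and AT4G02450 were lower, as were those left out by name. The 13 members also all lay below 0 in Atwrky63 KO, with a median of -0.16, against the same Col0 arrays. The members were read on the same 3 arrays per group, so these counts are not independent observations. In Atwrky40.4 OE limma called 7 members lower and none higher, beside 1.12% of all probe sets lower, 1.32% higher and 2.44% either way. The median stayed between -0.39 and -0.28 when any 1 array was left out or another setting was used. The count of 7 was 3 with quantile normalization, 1 without Atwrky40.4 OE high light replicate 2 and 2 without Col0 high light replicate 2. It was 11 without Atwrky40.4 OE high light replicate 1.

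The 4 named genes among those 7 were AT2G19310, AT5G25450, AT3G12050 and HSA32. AT2G19310 had 12600, 10700 and 11700 in Atwrky40.4 OE high light, against 18200, 16700 and 17500 in Col0 high light. The arrays did not overlap, and the difference was -0.59 ± 0.12 (SE, limma adjusted p = 0.00642). AT5G25450 had 12100, 11100 and 11900 in Atwrky40.4 OE, against 17100, 20600 and 18400 in Col0 (-0.68 ± 0.15, limma adjusted p = 0.0095). AT3G12050 had 12100, 8160 and 10000 in Atwrky40.4 OE, against 14000, 18100 and 15500 in Col0 (-0.66 ± 0.15, limma adjusted p = 0.0176). HSA32 had 4670, 3870 and 5310 in Atwrky40.4 OE, against 5350, 11600 and 14500 in Col0 (-1.08 ± 0.27, limma adjusted p = 0.0256), where Col0 replicate 1 nearly met the line. Of the unnamed calls, 256356_s_at, which covers several genes, had 510, 687 and 1110 in Atwrky40.4 OE, against 1980, 1830 and 1710 in Col0. Without treatment the named 4 had differences of -0.01, -0.24, -0.08 and 0.11 in Atwrky40.4 OE, none of them called.

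These 4 calls were sensitive to single arrays. All 4 ended without Atwrky40.4 OE high light replicate 2, with values of -0.53 for AT2G19310, -0.64 for AT5G25450, -0.52 for AT3G12050 and -0.95 for HSA32. Without Col0 high light replicate 2, AT5G25450 (-0.61), AT3G12050 (-0.56) and HSA32 (-0.94) were not called, and neither were HSA32 without Col0 high light replicate 3 (-0.78) and AT3G12050 without Atwrky40.4 OE high light replicate 3 (-0.67). With quantile normalization AT2G19310 (-0.41), AT5G25450 (-0.51) and AT3G12050 (-0.49) were not called. Whether the rise itself was smaller in Atwrky40.4 OE was tested as the difference in response. Its median over members was -0.32, against 0.00 over all probe sets, and 95 of 122 lay below 0, but limma called no member, beside 0.22% of all probe sets. At an unadjusted p under 0.05 there were 22 members. No share over all probe sets at that p is given here, so nothing is read from the 22. Limma called 1 member without Col0 untreated replicate 1 or Col0 high light replicate 1.

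**Figure D4:**
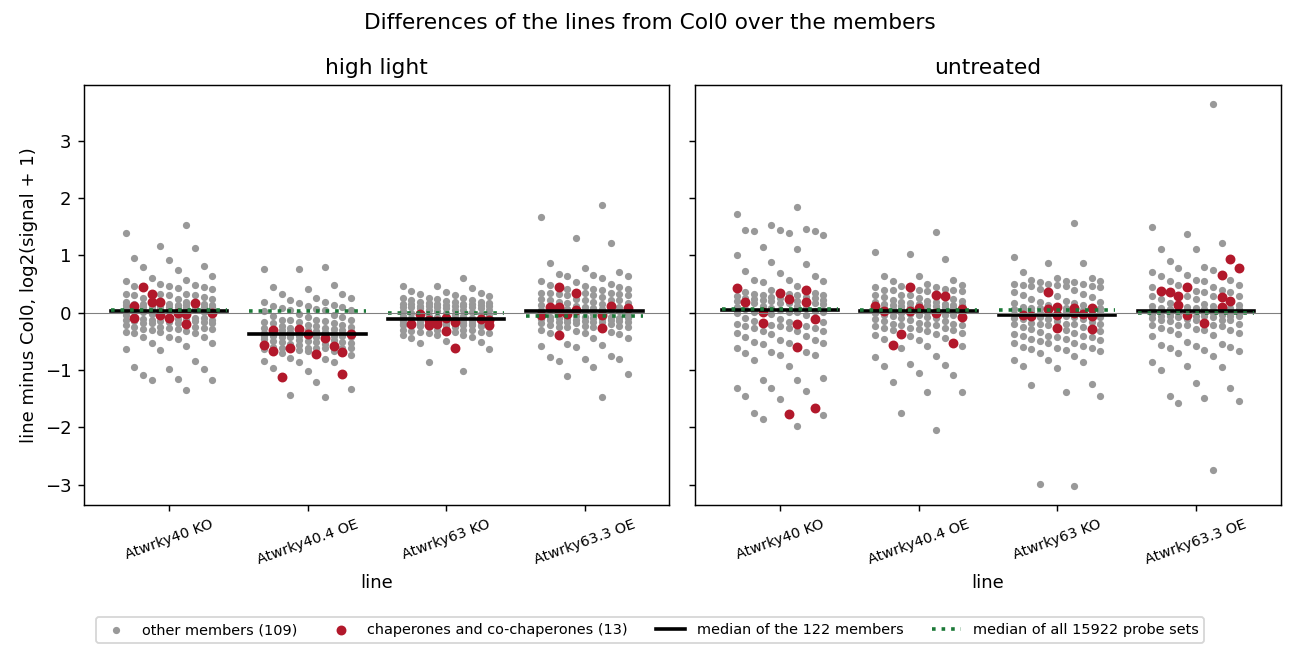
Difference of each line from Col0 in group means of log2(signal + 1) (vertical axis) for each of the 122 members, in high light (left) and without treatment (right). Red points are the 13 chaperones and co-chaperones, the black line is the median of the members and the dotted line that of all 15922 probe sets. In high light the Atwrky40.4 OE points centre on -0.37. All 13 red points lie below 0 there and in Atwrky63 KO. The other medians lie between -0.11 and 0.04.

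Atwrky40 KO differed from Col0 in individual members, in both directions, with a median near 0. Limma called 18 members (14.8%) without treatment, 12 higher and 6 lower, beside 14.3% of all probe sets. In high light it called 12 (9.84%), 7 higher and 5 lower, beside 15.2% of all. These shares lie near or below those of all probe sets, so the counts show nothing particular to the members. Of the 18, 257035_at and 258695_at averaged 22.9 and 2.49 in untreated Col0, under the filter signal of 46.7. With a pseudocount of 16 the difference of 257035_at went from 1.73 to 1.23 and was still called. That of 258695_at went from 1.53 to 0.52 and was not called (limma adjusted p = 0.155). Called lower, 264758_at had 56, 27.1 and 12.2 in untreated Atwrky40 KO, and 256356_s_at had 44.2, 36.3 and 48.8. Most of these values are also under the filter signal. The sizes of these differences (-1.74 and -1.17) therefore have no firm value, though both calls held in every alternative. The response differed for 7 members, 3 larger and 4 smaller, beside 1.03% of all probe sets. AT2G41730, whose function is not given here, showed the opposite difference in the 2 lights. In high light it had 11400, 10000 and 10400 in Atwrky40 KO, against 3740, 5050 and 3510 in Col0 (1.39 ± 0.27, SE, limma adjusted p = 0.000706). Without treatment it had 77.3, 83.6 and 96.4 in Atwrky40 KO, against 189, 336 and 210 in Col0 (-1.46 ± 0.27, limma adjusted p = 0.000434). The arrays did not overlap in either light, and the response was larger by 2.85 ± 0.39 (limma adjusted p = 0.000268). Its probe set is of a type that can bind transcripts of other genes.

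The small heat shock protein AT1G54050 started lower in Atwrky40 KO and ended at the Col0 level. Without treatment it had 182, 221 and 182 in Atwrky40 KO, against 705, 768 and 435 in Col0 (-1.66 ± 0.19, SE, limma adjusted p = 3e-07). The other lines lay at 1020, 584 and 994 (Atwrky40.4 OE), 640, 503 and 717 (Atwrky63 KO) and 490, 594 and 561 (Atwrky63.3 OE). In high light it had 27600, 23300 and 21800 in Atwrky40 KO, against 25200, 24600 and 24600 in Col0 (-0.04 ± 0.19, limma adjusted p = 0.922). The response was larger by 1.62 ± 0.26 (limma adjusted p = 0.00218), and the calls on AT1G54050 without treatment, on AT2G41730 in both lights and on both responses held in every alternative. The unnamed 264814_at had like untreated signals, 82.6, 84.6 and 102 in Atwrky40 KO, against 125, 108 and 104 in Col0. In high light it had 3440, 2740 and 2930 in Atwrky40 KO, against 1090, 1030 and 1010 in Col0 (1.53, limma adjusted p = 2.59e-07).

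Other named members called in Atwrky40 KO high light, all chosen for description after their values were seen except AT1G21550, were as follows. The phosphatase AT3G62260 averaged 3020 ± 195 in Atwrky40 KO and 1560 ± 146 in Col0 (SD, n = 3), a difference of 0.96 ± 0.26 (SE, limma adjusted p = 0.0109). AFR averaged 1660 ± 194 in Atwrky40 KO and 3190 ± 311 in Col0 (-0.94 ± 0.24, limma adjusted p = 0.00684). Both calls held in every alternative. The calcium-binding AT1G21550 had 6700, 8470 and 7710 in Atwrky40 KO, against 3730, 5070 and 4200 in Col0 (0.82 ± 0.27, limma adjusted p = 0.0366), and was not called without Col0 replicate 1 (0.72) or 3 (0.80) or Atwrky40 KO replicate 2 (0.74) or 3 (0.81) of high light. CHIL averaged 1530 ± 168 in Atwrky40 KO and 3040 ± 282 in Col0 (-0.99 ± 0.31, limma adjusted p = 0.0294), and was not called without Col0 replicate 1 (-0.96) or 3 (-0.94) or Atwrky40 KO replicate 1 (-1.03), 2 (-0.89) or 3 (-1.04). AT1G44414 had 1.14 ± 0.37 (limma adjusted p = 0.0391), and lost the call without any 1 of 6 arrays, with values of 1.07 to 1.27 over all alternatives. The count of 12 was 7 without Atwrky40 KO high light replicate 3 or Col0 high light replicate 3.

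**Figure D5:**
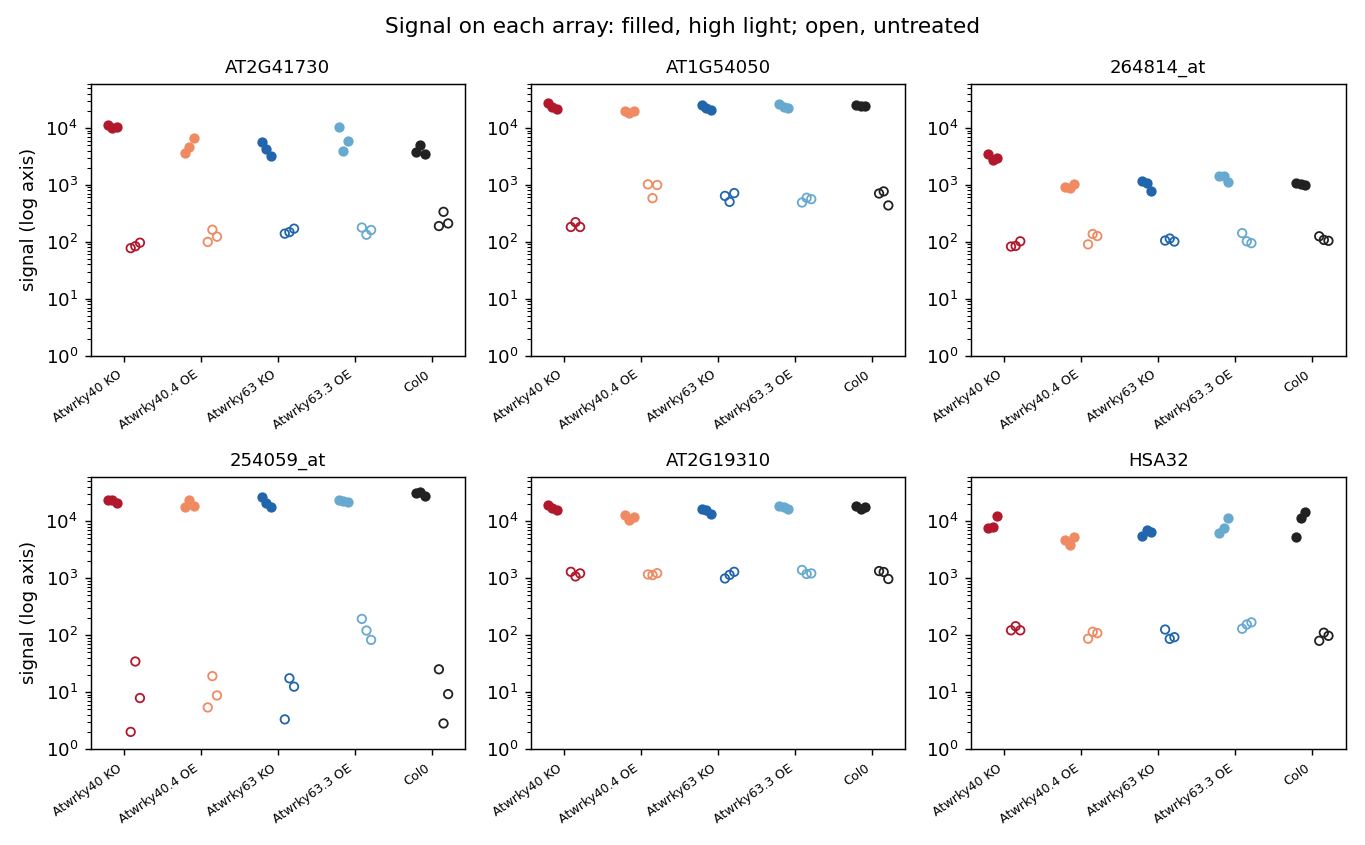
Signal on each array (log axis) for 6 members, by genotype, filled points for high light and open points for untreated leaves. AT1G54050 and AT2G41730 start lowest in Atwrky40 KO, 264814_at is highest in Atwrky40 KO high light (2740 to 3440), 254059_at starts highest in Atwrky63.3 OE (82.2 to 192), and AT2G19310 and HSA32 are lowest in Atwrky40.4 OE high light.

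In Atwrky63.3 OE the chaperones AT2G20560 and AT5G37670, the complex III gene AT5G25450 and AT5G19875 stood higher than in Col0 before treatment. Limma called 10 members there, 7 higher and 3 lower, beside 4.26% of all probe sets. Of these, 250351_at and 254059_at averaged 26.1 and 12.3 in untreated Col0, under the filter signal of 46.7. The sizes of their differences therefore have no firm value. With a pseudocount of 16 they went from -2.75 to -1.14 and from 3.64 to 2.39, and both were still called. Called lower by -1.22, 247691_at had 51.1, 17.1 and 46.3 in untreated Atwrky63.3 OE, where 17.1 and 46.3 are under the filter signal. AT2G20560 had 190, 184 and 165 in Atwrky63.3 OE, against 85.6, 133 and 70.5 in Col0 (0.94 ± 0.26, SE, limma adjusted p = 0.0389). AT5G37670 had 279, 273 and 224 in Atwrky63.3 OE, against 169, 182 and 108 in Col0 (0.78 ± 0.20, limma adjusted p = 0.0247). AT5G25450 had 309, 252 and 282 in Atwrky63.3 OE, against 143, 229 and 175 in Col0 (0.64 ± 0.15, limma adjusted p = 0.00937). AT5G19875, whose function is not given here, had 300, 266 and 299 in Atwrky63.3 OE, against 169, 127 and 169 in Col0 (0.90 ± 0.22, limma adjusted p = 0.0178). None of these arrays overlapped, and in high light all 4 genes were within 0.35 of Col0 and not called.

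These 4 calls were also lost when single arrays were left out, while the differences stayed above 0. Without Atwrky63.3 OE untreated replicate 1 none of the 4 was called, with values of 0.90 for AT2G20560, 0.73 for AT5G37670, 0.57 for AT5G25450 and 0.87 for AT5G19875, and 3 members in all were called. AT2G20560 also lost the call without Col0 untreated replicate 1 (0.88) or 3 (0.74) or Atwrky63.3 OE untreated replicate 2 (0.92) or 3 (1.00), and with quantile normalization (0.88), no variance trend (0.94) or a replicate block within each light (0.94). AT5G37670 lost it without Col0 untreated replicate 3 (0.55) or Atwrky63.3 OE untreated replicate 2 (0.74), and AT5G25450 without Col0 untreated replicate 1 (0.48). AT5G19875 lost it without Col0 untreated replicate 2 (0.76) or Atwrky63.3 OE untreated replicate 3 (0.88). Over the 13 chaperones and co-chaperones among the members, grouped after their values were seen, 11 lay above 0 in untreated Atwrky63.3 OE and 2 below. Their median was 0.30 with AT2G20560 and AT5G37670 called, against a median of 0.02 over the 122 members and 0.00 over all probe sets. Of all 15922 probe sets, 7879 lay above 0.

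After high light, Atwrky63.3 OE differed from Col0 in 1 member, beside 10.2% of all probe sets. AT2G27080, whose function is not given here and which was chosen after its values were seen, had 4020, 3230 and 5020 in Atwrky63.3 OE, against 443, 1790 and 1660 in Col0 (1.88 ± 0.52, SE, limma adjusted p = 0.0212). Its value was 1.22 without Col0 high light replicate 1 and 1.72 without Atwrky63.3 OE high light replicate 3, 1 of the 2 arrays with a high actin ratio, and it was then not called. The count was 3 without both arrays of high actin ratio 7 without Atwrky63.3 OE high light replicate 2, and 2 or 3 without any 1 of 9 further arrays. The response was smaller than that of Col0 for 2 members and larger for none, beside 0.22% of all probe sets smaller and 0.415% either way. The larger difference was that of the unnamed 254059_at, with 23500, 22600 and 21600 in Atwrky63.3 OE high light, against 31500, 32600 and 27600 in Col0 high light. Without treatment it had 192, 120 and 82.2 in Atwrky63.3 OE, against 25, 2.8 and 9.17 in Col0, and its response differed by -4.07 ± 0.90 (limma adjusted p = 0.0374). The untreated Col0 mean lies under the filter signal of 46.7, so the size of the difference depends on the pseudocount, and with 16 it was -2.82 (limma adjusted p = 0.00167). The call ended on leaving out any 1 of 10 arrays, with values from -4.76 to -2.82 over all alternatives. The count of 2 was 0 without any 1 of the untreated Atwrky63.3 OE arrays, Atwrky63.3 OE high light replicate 3, Col0 untreated replicate 3 or any 1 of the Col0 high light arrays. It was 1 without any 1 of 9 arrays of the other lines, 4 without Col0 untreated replicate 2 and 6 without Atwrky63.3 OE high light replicate 2.

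Few members differed from Col0 in Atwrky63 KO. Limma called 3 members without treatment, beside 0.502% of all probe sets, and none in high light, beside 0.0251%, or on the response, beside 0.113%. The count of 3 was 0 without Col0 untreated replicate 2, 1 of the 2 arrays of high actin ratio, 5 without Col0 untreated replicate 1, and 1 without Atwrky63 KO untreated replicate 1 or 2. Of the 3, 264400_at (-3) had 15.2, 34.5 and 57.8 in untreated Atwrky63 KO, against 129, 1080 and 121 in Col0. The 15.2 and 34.5 are under the filter signal of 46.7, so the size of this difference has no firm value. At an unadjusted p under 0.05 there were 3 members in high light and 12 on the response. The share over all probe sets at that p is not given here, so nothing is read from these counts. In high light all 13 chaperones and co-chaperones among the members lay below 0, with a median of -0.16, against -0.11 over the 122 members and -0.01 over all probe sets. Other listed chaperones went both ways in mean signal. Hop2 (5180 against 4070 in Col0), SGT1A (5150 against 4550), Fes1B (216 against 196) and AT4G02450 (1570 against 1480) were higher. Hsp70-2 (1950 against 2420), AT3G09440 (16600 against 19100), AT4G21870, Hop1 and Fes1C were lower, as were those left out by name. Of all 15922 probe sets, 8191 lay below 0. Without Atwrky63 KO high light replicate 3 the median over members was 0.03. The named call was AT1G21550 before treatment, with 43.8, 48.9 and 81.3 in Atwrky63 KO, against 126, 189 and 135 in Col0 (-1.39 ± 0.27, SE, limma adjusted p = 0.0137). It was not called without Col0 untreated replicate 2 (-1.21) or without Atwrky63 KO untreated replicate 1 (-1.22) or 2 (-1.29), and its response differed by 1.54 ± 0.38 (limma adjusted p = 0.0953).

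Atwrky40.4 OE had 2 members called without treatment, beside 2.45% of all probe sets. The count was 0 without Atwrky40.4 OE untreated replicate 3 or Col0 untreated replicate 3, 3 without Atwrky40 KO untreated replicate 1, and 1 without any 1 of 16 other arrays. The RING finger gene AT5G47610, named here because the count is small, averaged 75.2 ± 21.1 in Atwrky40.4 OE and 138 ± 23.1 in Col0 (SD, n = 3), a difference of -0.89 ± 0.25 (SE, limma adjusted p = 0.0492). It lost the call when any 1 of 22 arrays was left out, with values of -1.03 to -0.64. The unnamed 257035_at had 49.1, 61.2 and 67.6 in Atwrky40.4 OE, against 12.5, 31.9 and 24.4 in Col0 (1.41, limma adjusted p = 0.0337). All 3 Col0 values are under the filter signal of 46.7. The difference was 0.98 with a pseudocount of 16 (limma adjusted p = 0.138), and the call also ended on leaving out any 1 of 4 arrays.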

How the data were processed

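Leaf RNA of 30 samples was hybridised to Affymetrix ATH1 arrays. Per the submitters' processing notes the authors used MAS5, in a version not given in the sources used here, and deposited a linear signal intensity for each probe set. No detection calls were used. In R 4.3.3 with limma 3.58.1, 64 control probe sets were dropped, log2(signal + 1) was taken of the deposited intensity, and the 15922 probe sets at or above the 30th percentile of the mean were kept. A model of 10 group means was fitted to the 30 arrays with a variance trend, and calls were made at p under 0.05 after Benjamini-Hochberg adjustment over all kept probe sets in each comparison. The added 1 makes the log2 changes of dim probe sets smaller than those of the deposited signals without it. Those dim signals themselves have no firm value. Errors of log2 values are limma's SE and those of signals are SD. The 3 arrays per group limit the precision.

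Only the model fit was tested on simulated arrays, with changes planted in the response of Atwrky63.3 OE and independent noise. The member rule and shared deviations of arrays were not simulated. Groups and replicate numbers come from the titles. The series' design text names WRKY60 where title and labels name WRKY63, and the labels were followed. The members and gene lists were chosen with earlier results of these data known. Among members that name 1 gene, the text names the 12 with the largest mean rise, those on a list, up to 8, 4 and 4 with the smallest adjusted p in the F tests on the response, on untreated leaves and on high light, and the 3 nearest the threshold. Others were named for their role or call after their values were seen. Alternatives were a pseudocount of 16, quantile normalization, other filters, no variance trend, a replicate block, a replicate block within each light (chosen after seeing the data), 28 arrays without the 2 of high actin ratio, and leaving out each array. Lists with no named probe set, among them other heat-induced genes and the seed, guard cell and phloem markers, gave no value. Of 17 high light and oxidative stress genes 2 had a named probe set, STZ and CCS, which had -0.47 ± 0.27 (SE) in Col0 and was not called there, but fell in Atwrky40.4 OE (-0.81 ± 0.27, limma adjusted p = 0.0201) and Atwrky63.3 OE (-0.96 ± 0.27, limma adjusted p = 0.00495); its response was not called different from that of Col0 in any line (lowest limma adjusted p = 0.65). Gene lengths and order come from the RefSeq table of TAIR10.1. A planned search of promoters was not run.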

Additional observations from a re-analysis of the deposited data

Results flagged for a closer look

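The response to high light differed from that of Col0 for 9 pairs of member and line, by limma's test of the difference itself. In Atwrky40 KO the response was larger for AT2G41730 (2.85 ± 0.39, SE, limma adjusted p = 0.000268), 264814_at (1.86 ± 0.24, limma adjusted p = 0.000138) and AT1G54050 (1.62 ± 0.26, limma adjusted p = 0.00218), and these calls held under every alternative.

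In Atwrky40 KO it was smaller for 4 unnamed probe sets, each of which started higher than in Col0. For 257035_at the response differed by -2.56 ± 0.52 (SE, limma adjusted p = 0.0105), with untreated signals of 57.1, 91.5 and 75.3 in Atwrky40 KO, against 12.5, 31.9 and 24.4 in Col0. These Col0 values are under the filter signal of 46.7, and with a pseudocount of 16 the difference was -2.06 (limma adjusted p = 0.0237). For 263433_at it differed by -1.30 ± 0.26 (limma adjusted p = 0.00904), with 1030, 845 and 730 in Atwrky40 KO, against 507, 286 and 430 in Col0. The calls on 257035_at and 263433_at held under every alternative. For 252123_at it differed by -1.77 ± 0.44 (limma adjusted p = 0.0429), with 871, 517 and 571 in Atwrky40 KO, against 314, 216 and 196 in Col0, and the call ended on leaving out any 1 of 17 arrays. For 264436_at it differed by -0.94 ± 0.22 (limma adjusted p = 0.0319), with 707, 742 and 926 in Atwrky40 KO, against 389, 238 and 265 in Col0, and the call ended on leaving out any 1 of 8 arrays. Over all alternatives these 2 ran from -1.98 to -1.55 and from -1.15 to -0.80.

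In Atwrky63.3 OE the response was smaller for 254059_at (-4.07 ± 0.90, SE, limma adjusted p = 0.0374) and 247293_at (-1.47 ± 0.34, limma adjusted p = 0.0467). For 254059_at the untreated Col0 signals of 25, 2.8 and 9.17 are under the filter signal, and with a pseudocount of 16 the difference was -2.82 (limma adjusted p = 0.00167). Untreated, 247293_at had 255, 191 and 198 in Atwrky63.3 OE, against 78.7, 110 and 62.4 in Col0. These calls ended on leaving out any 1 of 10 arrays for 254059_at, with values from -4.76 to -2.82 over all alternatives, and of 19 arrays for 247293_at, with values from -1.69 to -1.28.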

How the results depend on the processing

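The 122 members became 274 with a rise of at least 2 and 54 with at least 4, 115 with a pseudocount of 16 (all 115 among the 122), 128 after quantile normalization (122 shared), 97 with a high light mean of at least 10, and 117 to 126 when 1 array was left out. With a pseudocount of 16 the median rise was 4.27 in Atwrky40 KO, 4.06 in Atwrky40.4 OE, 4.23 in Atwrky63 KO and 4.17 in Col0, and with quantile normalization 4.79 in Atwrky40 KO; leaving out 1 array gave 4.46 to 4.69 in Atwrky40 KO, 4.21 to 4.43 in Atwrky40.4 OE, 4.47 to 4.75 in Atwrky63 KO, 4.52 to 4.84 in Atwrky63.3 OE and 4.34 to 4.48 in Col0. Of 62 called differences, 27 were called under every alternative, 35 lost the call on leaving out 1 array, 22 under another setting, and 0 reversed; with fewer arrays the test has less power, and no other cause was tested. Leaving out 1 array gave 33 to 42 genotype calls (F test) without treatment, 28 to 45 in high light and 11 to 16 on the response. Over all probe sets the shares were 27.1%, 33.7% and 3.28% with all 30 arrays. Shares are not given for the fits without 1 array, here or in the counts by line. Line by line, Atwrky40 KO had 17 to 22 calls without treatment, 7 to 13 in high light and 5 to 7 on the response. Atwrky40.4 OE had 0 to 3, 1 to 11 and 0 to 1; without treatment it had 0 with a pseudocount of 16 and 1 with no filter, with no variance trend or with the replicate block, and 3 in high light after quantile normalization. Atwrky63 KO had 0 to 5 without treatment, and 0 on the 28 arrays. Atwrky63.3 OE had 3 to 12, 0 to 7 and 0 to 6; in high light it had 2 with a pseudocount of 16, quantile normalization or the replicate block and 3 on the 28 arrays or with the block within each light, and on the response 1 after quantile normalization or with no filter and 0 with no variance trend or on the 28 arrays. Same-numbered arrays of a genotype's 2 lights did not deviate together over all probe sets (15 pairs, -0.13 to 0.14, 1 above 0.1). Between genotypes in 1 light, 12 of 30 pairs were above 0.1 in high light (-0.16 to 0.32) and 12 of 30 in untreated leaves (-0.12 to 0.28); over the 122 members alone the pairs ran from -0.68 to 0.86 in high light (median 0.44, 19 above 0.1) and from -0.36 to 0.35 untreated (median -0.02), so some high light arrays of 1 number share a deviation in these genes, though not every pair does, and the numbers were not taken as pairing. With the replicate block the F tests called 40 untreated, 44 in high light and 13 on the response. The shares of all probe sets were 28%, 34.8% and 3.61%. With a block within each light, chosen after seeing the data, they called 42, 45 and 14 members, beside 29.8%, 37.3% and 4.24% of all probe sets. The promoter search was not run because the sources used here held no promoter sequences.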
